A study of Mus musculus with 24 samples.

Results

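Matrix metalloproteinases, their tissue inhibitors and related matrix proteases were followed in mouse liver as 10 genes chosen by name. They were the tissue inhibitors of metalloproteinases Timp1, Timp2 and Timp3, the matrix metalloproteinases Mmp2, Mmp12, Mmp13, Mmp14 and Mmp19, and the ADAMTS proteases Adamts1 and Adamts2. Each name matched 1 of the 14293 protein-coding genes in the expression table. The choice was made with earlier results of these data known, so counts of calls among the 10 genes describe them and do not test the family. RNA was sequenced from 24 liver samples, of which 8 were labelled vutiglabridin, 8 semaglutide and 8 vehicle. Vutiglabridin is named in the series title as an agonist of a paraoxonase, and semaglutide is an agonist of the glucagon-like peptide receptor used against diabetes and obesity. All 3 groups, vehicle included, are described as livers with non-alcoholic steatohepatitis, a disease in which fat storage, inflammation and scarring of the liver occur together. The labels used here give no mouse strain, sex, age, diet, dose or length of treatment, and no liver without the disease was analysed, so the levels say how the treated livers differed from vehicle livers and not how far any of them stood from health. Nothing in the labels says whether replicates came from separate animals, and the samples of a group are called its livers below without that being known, so any p-value below speaks for the variation among these libraries alone, and part of that variation may be technical.

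Matrix metalloproteinases are zinc-dependent enzymes that cut collagens, elastin, laminins and other proteins of the extracellular matrix. They are made as inactive proforms, are switched on by proteolysis, and are held in check by the TIMPs, which bind the active site. In the scarring liver, activated stellate cells and portal fibroblasts are known sources of Timp1, Timp2 and Mmp2, while macrophages are a known source of Mmp12 and Mmp13, so both the building and the clearing of scar matrix pass through these genes. The messenger RNA of a protease says nothing of how much of its protein is active.

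The table holds FPKM, fragments per kilobase of transcript, scaled by the mapped fragments of the library, so levels can be compared between genes per unit of length. The low values lie on whole multiples of what 1 fragment is worth, which implied 5.81 to 15.11 M (mega) fragments in vutiglabridin libraries, 9.16 to 12.28 M in semaglutide libraries and 11.82 to 19.70 M in vehicle libraries. Replicate 7 of vutiglabridin was the shallowest and had 1413 genes listed at 0, against 80 to 439 in the vehicle libraries. In the table each value of the 8 semaglutide columns ends in a space and no value of the other 16 does, and whether these libraries were also processed apart is not given in the sources used here, so such a step and the drug cannot be told apart. All 10 hepatocyte markers checked were detected in each group and their summed FPKM was 37425 to 51627 in vutiglabridin livers, 37068 to 49723 in semaglutide livers and 32958 to 40975 in vehicle livers. Of those markers, 5 were higher in vutiglabridin livers and 7 in semaglutide livers than in vehicle livers, and none were lower. Over all genes tested 6.53% were higher with vutiglabridin and 14.3% with semaglutide. Total FPKM averaged 368614 in vutiglabridin, 343428 in semaglutide and 330352 in vehicle libraries, and the hepatocyte marker calls were not repeated with equal totals.

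The upstream sequences of Mmp12 and Mmp13 are shown because these neighbours on chromosome 9 were lower in both drug groups, and that of Timp1 because its level changed by the largest factor among the inhibitors. RefSeq promoter windows on GRCm38.p6, from 250 bases before to 50 bases after the annotated start, were found for 8 of the 10 genes, with 9 windows since Mmp12 has 2, and Mmp2 and Mmp19 are named only. The second Mmp12 window lies at chr9:7347124-7347423 on the plus strand, the Mmp13 window at chr9:7272264-7272563 on the plus strand, and the Timp1 window at chrX:20869916-20870215 on the plus strand. Capitals mark the AP-1 motif TGANTCA and the TATA box TATAAA where a search of both strands found them.
Mmp12: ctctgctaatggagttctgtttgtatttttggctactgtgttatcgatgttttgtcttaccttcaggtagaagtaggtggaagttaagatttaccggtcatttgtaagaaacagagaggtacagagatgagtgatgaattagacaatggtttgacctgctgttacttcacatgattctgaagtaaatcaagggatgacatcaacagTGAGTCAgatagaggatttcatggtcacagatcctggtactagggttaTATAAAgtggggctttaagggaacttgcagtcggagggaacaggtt
Mmp13: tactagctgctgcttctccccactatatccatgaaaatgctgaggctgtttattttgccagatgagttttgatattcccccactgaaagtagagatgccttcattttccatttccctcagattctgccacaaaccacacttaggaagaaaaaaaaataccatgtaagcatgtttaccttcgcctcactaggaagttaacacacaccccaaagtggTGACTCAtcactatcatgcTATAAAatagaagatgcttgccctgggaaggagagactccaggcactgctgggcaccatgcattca
Timp1: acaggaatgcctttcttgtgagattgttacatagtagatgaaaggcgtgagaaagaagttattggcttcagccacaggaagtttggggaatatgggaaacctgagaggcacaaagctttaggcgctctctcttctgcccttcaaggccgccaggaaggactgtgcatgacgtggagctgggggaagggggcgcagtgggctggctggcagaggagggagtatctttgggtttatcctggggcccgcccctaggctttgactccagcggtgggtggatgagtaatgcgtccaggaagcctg
The AP-1 motif, which reads the same on either strand, began 44 bases before the start in Mmp12, as TGAGTCA, and 35 bases before the start in Mmp13, as TGACTCA. No other window of the 9 held these exact letters, and 7.81% of 32851 RefSeq promoter windows of the same length did. Looser forms of the motif were not searched, so the other windows are not shown to lack an AP-1 site. The Timp1 window holds tgagtaa near its end, which departs from the motif in a single letter. TATAAA occurred in 3 of the 9 windows, the second of Mmp12 and those of Mmp13 and Adamts1, and in 13.6% of all windows. Counted from the annotated start, with minus for bases before it, TATAAA began at 5 in Mmp12, -16 in Mmp13 and -32 in Adamts1. The Mmp12 match thus lies after the annotated start. The GC box GGGCGG occurred in 6 of the 9 windows (Timp1, Timp2, Timp3, Mmp14, Adamts1 and Adamts2), against 35.7% of all windows. The CCAAT box occurred in 3 of the 9 windows (Timp1, Timp2 and Mmp14), against 37.4% of all windows. In the Mmp14 window, which is not shown, a CCAAT match and a GC box share a base. These matches describe the letters in the windows and do not show that any factor binds there.

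The 10 genes spanned a wide range of levels, and the ends of the range were alike in the 3 groups. Mmp19, a secreted metalloproteinase that cuts components of basement membranes, had the highest mean FPKM in every group, at 26.1 ± 4.93 in vutiglabridin livers, 20.3 ± 2.16 in semaglutide livers and 21.4 ± 2.59 in vehicle livers (SD, n = 8 each, as for every mean below). Timp2 and Timp3 came next, and their ranges of mean ± SD overlapped in every group. Library by library, Timp2 was above Timp3 throughout the vehicle livers, and in semaglutide livers except replicate 1 (9.5 against 9.56 FPKM). In vutiglabridin livers either gene could be the higher, and the difference between the genes was not tested. Mmp13, the main interstitial collagenase of rodents, was lowest in every group, at 0.559 ± 0.275 FPKM in vutiglabridin livers, 0.516 ± 0.405 in semaglutide livers and 1.54 ± 0.743 in vehicle livers. In vutiglabridin livers the libraries of Mmp19 did not overlap those of the next gene, Timp3, and those of Adamts2 did not overlap those of Mmp13, while every other pair of neighbours in the order overlapped. In semaglutide and vehicle livers every pair of neighbours in the order overlapped. Timp1 stood sixth of 10 in vehicle livers and eighth in both drug groups.

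**Figure D1:**
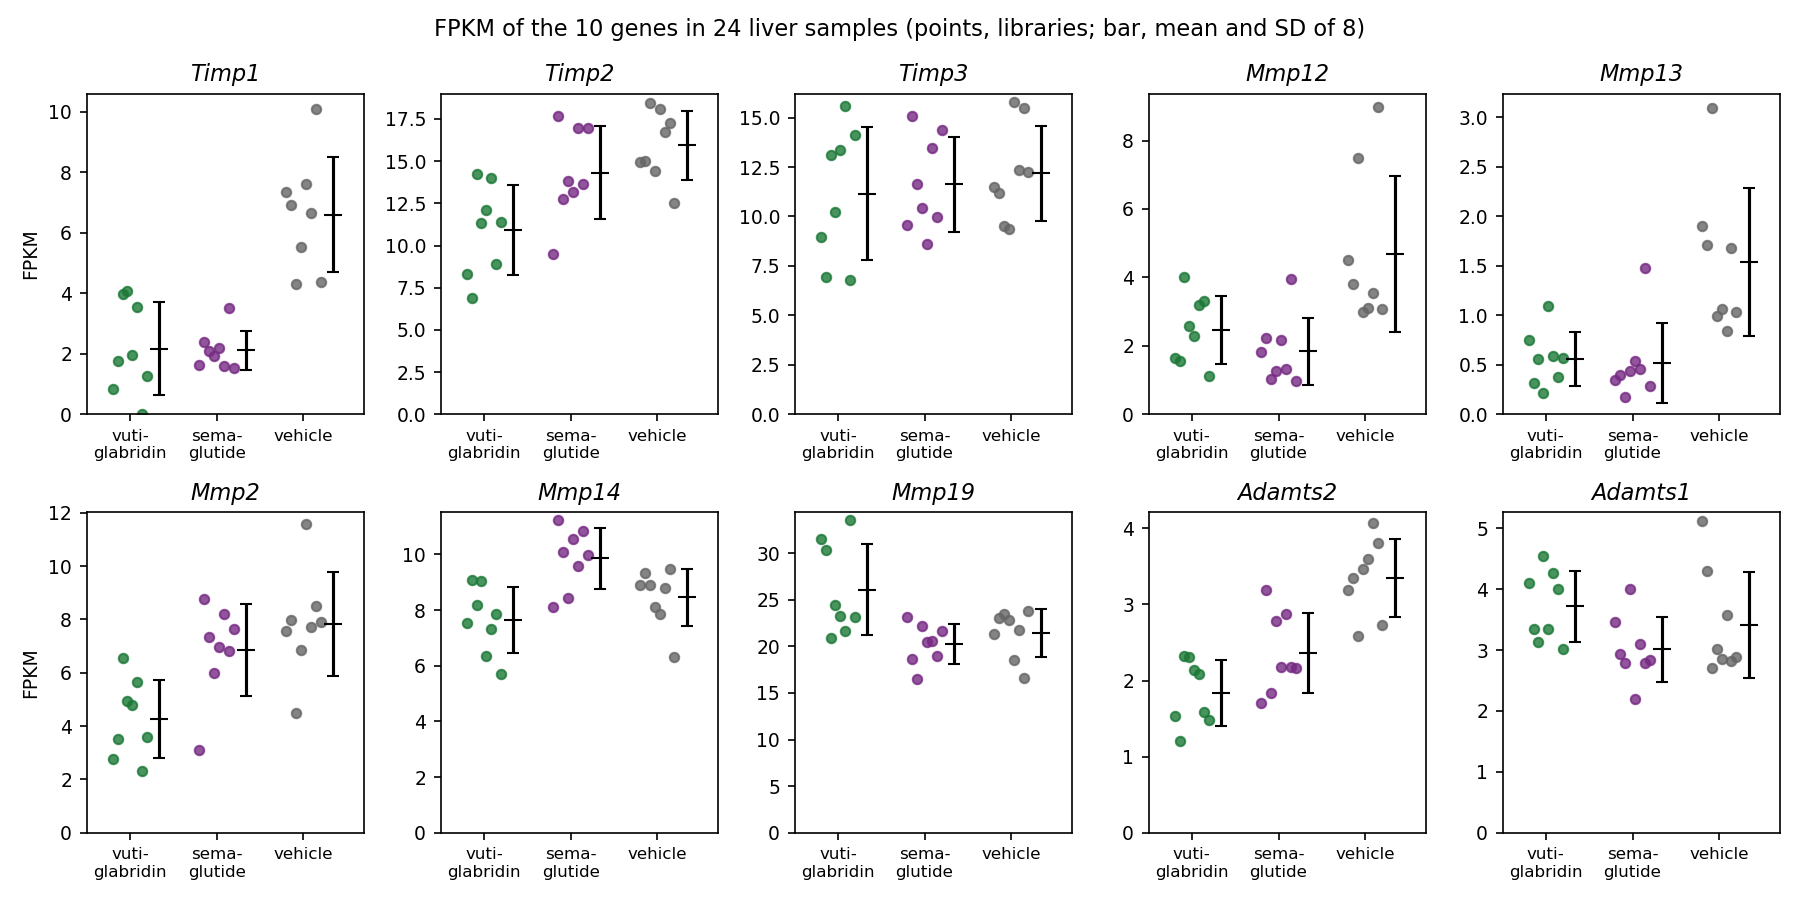
FPKM (vertical axes, each starting at 0) of the 10 genes in each library, with vutiglabridin, semaglutide and vehicle from left to right; each point is 1 library and the bar beside it is the mean with the SD of 8. Timp1 does not overlap between either drug group and vehicle, Adamts2 does not overlap between vutiglabridin and vehicle, and Mmp19 is spread widest in vutiglabridin livers.

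In vutiglabridin livers, 6 of the 10 genes were lower than in vehicle livers and none were higher. The 6 were the inhibitors Timp1 and Timp2, the proteases Mmp12, Mmp13 and Mmp2, and the procollagen-processing enzyme Adamts2. Over all 11562 genes tested, 15.3% changed in either direction, 6.53% were higher and 8.78% were lower (limma's moderated test, Benjamini-Hochberg adjusted p under 0.05). With libraries rescaled to equal totals, 2.02% of all genes were higher and 23.6% lower, and 7 of the 10 genes were lower, Mmp14 in addition. The median difference of the 10 genes on the log2(FPKM + 1) scale was, without rescaling, -0.58, against 0.01 over all genes tested. The libraries of the 2 groups did not overlap for 2 of the 10, Timp1 and Adamts2, and for 1.74% of all genes tested. In semaglutide livers, 4 of the 10 were lower than in vehicle livers, Timp1, Mmp12, Mmp13 and Adamts2, and none were higher. There 27.0% of all genes tested changed, 14.3% were higher and 12.7% were lower, and the median difference of the 10 genes was -0.17, against -0.01 over all genes. Timp1 was the 1 gene of the 10 whose semaglutide and vehicle libraries did not overlap, against 5.83% of all genes tested. Both comparisons use the same 8 vehicle livers, so their values are given side by side and a likeness between them is not counted as a result. Fewer cells of a type and less RNA per cell cannot be told apart in whole-liver RNA, here and in all comparisons below.

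**Figure D2:**
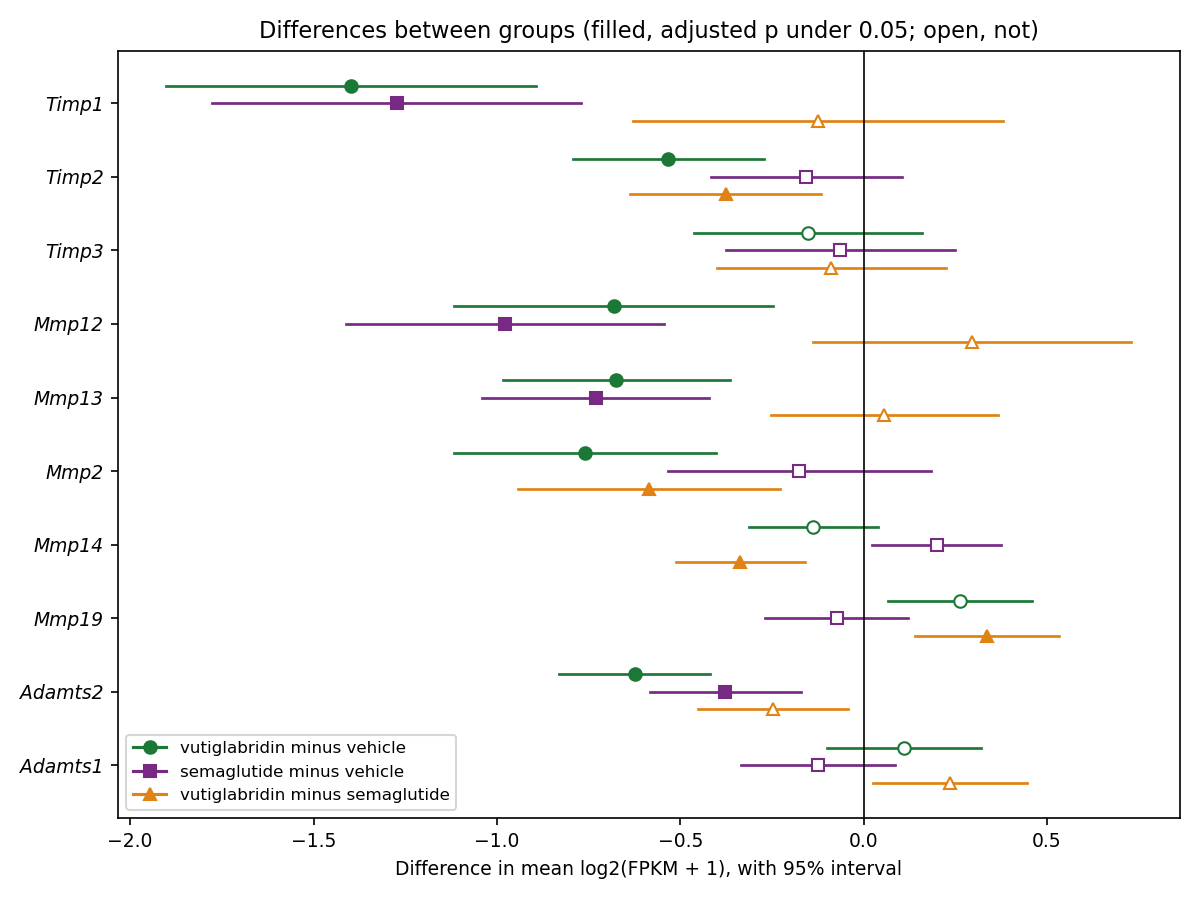
Difference between groups in mean log2(FPKM + 1) (horizontal axis) with its 95% interval for the 10 genes in the 3 comparisons, filled where the adjusted p was under 0.05. Timp1, Mmp12, Mmp13 and Adamts2 are left of 0 with filled markers for both drugs against vehicle, whereas Timp2 and Mmp2 are filled for vutiglabridin and open for semaglutide.

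Timp1, an inhibitor of most secreted metalloproteinases and a standard marker of liver scarring, was about 3 times lower in both drug groups than in vehicle livers. In vutiglabridin replicates 1 to 6 it measured 0.84, 1.75, 3.99, 4.07, 1.96 and 3.53 FPKM, in replicate 8 it measured 1.25 FPKM, and in replicate 7 it is listed at 0. In semaglutide replicates 1 to 8 it measured 1.64, 2.40, 2.09, 1.93, 2.18, 1.60, 3.52 and 1.53 FPKM. In vehicle replicates 1 to 8 it measured 7.34, 6.93, 4.30, 5.53, 7.62, 6.64, 10.1 and 4.36 FPKM. Every drug-treated library was below every vehicle library, and the vutiglabridin libraries were spread more widely than the semaglutide ones. The mean fell by 67.1% with vutiglabridin and to 0.320 of the vehicle mean with semaglutide. On the log2(FPKM + 1) scale, which understates changes of low genes, the difference from vehicle was -1.40 ± 0.24 for vutiglabridin (SE, adjusted p = 0.000448) and -1.27 ± 0.24 for semaglutide (adjusted p = 0.000401). These levels rest on a median of 20 fragments per library for vutiglabridin, 18 for semaglutide and 78 for vehicle. In replicate 7 of vutiglabridin 3 fragments would be worth 0.581 FPKM, and without that library the vutiglabridin difference was -1.18 (adjusted p = 0.000480).

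Timp2, which inhibits metalloproteinases and also bridges Mmp14 to the proform of Mmp2 on the cell surface, was lower with vutiglabridin. It ranged over 6.89 to 14.25 FPKM around a median of 11.4 in vutiglabridin livers, over 9.50 to 17.67 around 13.7 in semaglutide livers, and over 12.53 to 18.43 around 15.9 in vehicle livers. Of the 8 vutiglabridin libraries, 6 lay below every vehicle library. The mean fell by 31.5% against vehicle, a difference of -0.53 ± 0.13 (adjusted p = 0.00566). With semaglutide the difference from vehicle was -0.16 ± 0.13 and did not pass the threshold (adjusted p = 0.387). Timp3, the inhibitor that binds to the matrix itself and also blocks ADAM and ADAMTS proteases, averaged 11.1 ± 3.37 FPKM in vutiglabridin livers, 11.6 ± 2.40 in semaglutide livers and 12.2 ± 2.41 in vehicle livers, and the ranges of the groups overlapped, with 3 of the 8 vutiglabridin libraries and 1 of the 8 semaglutide libraries below every vehicle library. Its difference from vehicle was -0.15 with vutiglabridin (95% interval -0.46 to 0.16, adjusted p = 0.558) and -0.06 with semaglutide (95% interval -0.37 to 0.25, adjusted p = 0.801). Summed over the 3 inhibitors, Timp1 made up 8.36 ± 5.18% of the FPKM in vutiglabridin livers, 7.72 ± 2.60% in semaglutide livers and 18.8 ± 3.39% in vehicle livers.

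Mmp12, the elastase of macrophages, was lower in both drug groups. It ranged over 1.13 to 4.00 FPKM around a median of 2.45 in vutiglabridin livers, over 0.96 to 3.95 around 1.58 in semaglutide livers, and over 2.98 to 8.97 around 3.68 in vehicle livers. Vehicle replicates 3 and 7 stood highest, at 7.5 and 8.97 FPKM, and 7 of the 8 semaglutide libraries lay below every vehicle library, against 5 of the 8 vutiglabridin libraries. The mean fell by 47.3% with vutiglabridin (log2 difference -0.68 ± 0.21, adjusted p = 0.0292) and it fell by 60.6% with semaglutide (-0.98 ± 0.21, adjusted p = 0.00124). The vutiglabridin call rested on single libraries: the adjusted p was 0.0654 without vehicle replicate 3, 0.0717 without vehicle replicate 7, 0.0603, 0.0607 and 0.0675 without vutiglabridin replicates 1, 2 and 8, and 0.134 by an exact Wilcoxon test.

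Mmp13, the interstitial collagenase, was also lower in both drug groups, at low levels. Its 8 values were 0.75, 0.32, 0.56, 0.21, 1.09, 0.59, 0.38 and 0.57 FPKM in vutiglabridin livers, 0.35, 0.40, 0.17, 0.44, 0.54, 0.46, 1.48 and 0.29 in semaglutide livers, and 1.90, 1.71, 3.09, 0.99, 1.06, 0.84, 1.68 and 1.03 in vehicle livers, in the order of the replicates. In each drug group 7 of the 8 libraries lay below every vehicle library, and the exceptions were vutiglabridin replicate 5 and semaglutide replicate 7. The mean fell by 63.7% with vutiglabridin (-0.67 ± 0.15, adjusted p = 0.00353) and it fell by 66.4% with semaglutide (-0.73 ± 0.15, adjusted p = 0.000806). Mmp13 entered the test through its vehicle libraries, since it reached 0.5 FPKM in 5 vutiglabridin, 2 semaglutide and 8 vehicle libraries and the filter asked for 8 of 24, and the counts of 6 and 4 above include it. The other 9 genes reached 0.5 FPKM in at least 23 libraries. Its values stand for a median of 22 fragments in vutiglabridin, 10 in semaglutide and 48 in vehicle libraries.

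Most markers of recruited and lipid-associated macrophages were lower than in vehicle livers in both drug groups, beside Mmp12 and Mmp13. All 10 of these markers, among them the chemokine receptors Ccr2 and Cx3cr1, were lower in vutiglabridin livers and 8 of 10 were lower in semaglutide livers. Their summed FPKM was 46.2 to 88.0 in vutiglabridin livers, 53.5 to 90.2 in semaglutide livers and 84.99 to 162 in vehicle livers, and none had a median at or under 0.1 FPKM in any group. Between the drugs 3 of these 10 markers were lower with vutiglabridin, Ccr2 and Cx3cr1 among them, against 12.6% of all genes tested. The other 7 did not pass, nor did Mmp12 (0.30) and Mmp13 (0.06). Of 7 markers of resident Kupffer cells, none changed with vutiglabridin and 2 were lower with semaglutide, and their summed FPKM was 66.8 to 199 in vutiglabridin livers, 52.3 to 118 in semaglutide livers and 85.7 to 322 in vehicle livers. Of the lymphocyte markers, 3 of 4 tested T and NK cell genes (Cd8a, Lck and Nkg7) and 1 of 3 tested B and plasma cell genes (Cd79b) were lower with vutiglabridin. None passed with semaglutide. In vutiglabridin livers Cd8a and Lck averaged 0.248 and 0.411 FPKM, against 0.681 and 0.904 in vehicle livers, and Nkg7 and Cd79b averaged 0.946 and 0.799. Cd8a and Lck could thus meet the filter of 0.5 FPKM through the other groups, which leans the count towards lower calls. The 8 T and NK cell genes in the table summed to 1.28 to 3.98 FPKM in vutiglabridin livers, 3.38 to 7.76 in semaglutide livers and 3.28 to 9.32 in vehicle livers. The 6 B and plasma cell genes summed to 1.96 to 5.96 FPKM in vutiglabridin livers, 3.05 to 15.86 in semaglutide livers and 3.26 to 58.92 in vehicle livers, and Ms4a1 and Mzb1 had medians at or under 0.1 FPKM in vutiglabridin livers, as did Mzb1 in semaglutide livers. The part of these cells in the levels of Mmp12 and Mmp13 was not tested. Beside these counts of lower markers stand 8.78% of all genes tested with vutiglabridin and 12.7% with semaglutide.

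Mmp2, the gelatinase that cuts denatured collagen and basement membrane collagen, was lower with vutiglabridin. It ranged over 2.33 to 6.56 FPKM around a median of 4.21 in vutiglabridin livers, over 3.12 to 8.76 around 7.16 in semaglutide livers, and over 4.51 to 11.57 around 7.81 in vehicle livers. All 8 vutiglabridin libraries lay below the vehicle mean and 4 of them below every vehicle library, while the semaglutide libraries overlapped the vehicle ones nearly throughout. The mean fell by 45.4% with vutiglabridin (-0.76 ± 0.17, adjusted p = 0.00419). With semaglutide the difference was -0.18 ± 0.17 (95% interval -0.53 to 0.18, adjusted p = 0.495).

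Mmp14, the membrane-bound metalloproteinase that activates the proform of Mmp2, averaged 7.64 ± 1.19 FPKM in vutiglabridin livers, 9.86 ± 1.11 in semaglutide livers and 8.46 ± 1.02 in vehicle livers. Its difference from vehicle passed the threshold for neither drug, at -0.14 ± 0.09 with vutiglabridin (adjusted p = 0.310) and 0.20 ± 0.09 with semaglutide (adjusted p = 0.0852). Correction for GC content and length made it a call with semaglutide (0.25, adjusted p = 0.0150), as did leaving out semaglutide replicate 1 (adjusted p = 0.04996). With vutiglabridin rescaling to equal totals made it a call (-0.30, adjusted p = 0.0307). Over the fits that left out 1 library, the adjusted p reached 0.184 with semaglutide and 0.546 with vutiglabridin. Per library, the ratio of Mmp2 to Timp2 was 0.390 ± 0.0813 in vutiglabridin livers, 0.475 ± 0.0738 in semaglutide livers and 0.498 ± 0.123 in vehicle livers. The ratio of Mmp14 to Timp2 was 0.753 ± 0.284 in vutiglabridin livers, 0.705 ± 0.117 in semaglutide livers and 0.535 ± 0.0608 in vehicle livers. These ratios are given as a description and were not tested.

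Mmp19 had the opposite sign to the other metalloproteinases with vutiglabridin, without passing the threshold against vehicle. It ranged over 20.86 to 33.57 FPKM around a median of 23.9 in vutiglabridin livers, over 16.52 to 23.13 around 20.5 in semaglutide livers, and over 16.57 to 23.81 around 22.3 in vehicle livers. The difference from vehicle was 0.26 ± 0.10 with vutiglabridin (95% interval 0.07 to 0.46, adjusted p = 0.0624) and -0.07 ± 0.10 with semaglutide (adjusted p = 0.614). With vutiglabridin it passed after correction for GC content and length (adjusted p = 0.0439) and without vutiglabridin replicate 3 (0.0279) or 6 (0.0389). Over all fits that left out 1 library, the difference ranged over 0.21 to 0.30 and its adjusted p reached 0.142. Total FPKM averaged 368614 in vutiglabridin and 330352 in vehicle libraries, and the Mmp19 difference with equal totals is not given here. Of the 8 vutiglabridin libraries, 4 lay above every vehicle library. Mmp19 made up 63.3 ± 7.12% of the summed FPKM of the 5 metalloproteinases in vutiglabridin livers, 51.7 ± 6.4% in semaglutide livers and 48.8 ± 6.23% in vehicle livers. The other 4 together summed to 14.9 ± 2.61 FPKM in vutiglabridin livers, 19.1 ± 3.19 in semaglutide livers and 22.5 ± 3.25 in vehicle livers.

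Adamts2, which trims the amino-terminal propeptide from fibrillar procollagens, was lower in both drug groups. Its 8 values were 1.53, 1.20, 2.32, 2.31, 2.14, 2.09, 1.58 and 1.48 FPKM in vutiglabridin livers, 1.70, 3.19, 1.84, 2.78, 2.18, 2.87, 2.18 and 2.16 in semaglutide livers, and 3.19, 3.35, 2.58, 3.46, 3.59, 4.07, 3.80 and 2.73 in vehicle livers, in the order of the replicates. The vutiglabridin libraries lay below every vehicle library, and 5 of the 8 semaglutide libraries did. The mean fell by 45.3% with vutiglabridin (-0.62 ± 0.10, adjusted p = 0.000201) and it fell by 29.4% with semaglutide (-0.38 ± 0.10, adjusted p = 0.00638). Adamts1, a protease of the proteoglycans aggrecan and versican, averaged 3.72 ± 0.578 FPKM in vutiglabridin livers, 3.01 ± 0.534 in semaglutide livers and 3.41 ± 0.872 in vehicle livers. It passed the threshold against vehicle for neither drug, with a difference of 0.11 for vutiglabridin (95% interval -0.10 to 0.32, adjusted p = 0.518) and -0.12 for semaglutide (95% interval -0.33 to 0.09, adjusted p = 0.392). The sign for vutiglabridin turned to -0.01 when libraries were rescaled to equal totals.

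Part of the markers of scar-forming cells were lower in both drug groups, beside Timp1 and Adamts2 in both groups and beside Timp2 and Mmp2 in vutiglabridin livers. Over all genes tested 8.78% were lower with vutiglabridin and 12.7% with semaglutide. Of 8 myofibroblast markers, 6 were lower in vutiglabridin livers, among them the collagens Col1a1 and Col3a1 and the matrix protein Postn, and 6 were lower in semaglutide livers, where Acta2 and Tagln, proteins of the contractile skeleton, were among them. Their summed FPKM was 82.0 to 220 in vutiglabridin livers, 111 to 295 in semaglutide livers and 195 to 393 in vehicle livers, and the list includes matrix genes counted again below. The osteopontin gene Spp1 made up 71.9 to 90.4% of that sum in every library, and the other 7 genes summed to 13.5 to 43.3 FPKM in vutiglabridin livers, 25.0 to 43.5 in semaglutide livers and 50.1 to 87.1 in vehicle livers. Of 10 markers of stellate cells, 2 were lower in vutiglabridin livers (Pdgfrb and Hgf) and 8 did not pass, and in semaglutide livers 3 were lower and Hgf was higher. The summed FPKM of that list was 138 to 210 in vutiglabridin livers, 135 to 168 in semaglutide livers and 165 to 266 in vehicle livers. Of 7 cholangiocyte markers, 3 were lower in vutiglabridin livers and none changed in semaglutide livers, and Spp1 is on this list too, is 1 of the 3, and makes up 88.8 to 93.6% of its sum. Without Spp1 the cholangiocyte markers summed to 5.02 to 17.1 FPKM in vutiglabridin livers, 8.62 to 28.0 in semaglutide livers and 13.3 to 23.2 in vehicle livers. No marker of these 3 lists had a median at or under 0.1 FPKM in any group. The part of these cells in the levels of the 4 genes was not tested.

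Set against each other, the 2 drugs differed for 4 of the 10 genes. Mmp2, Timp2 and Mmp14 were lower, and Mmp19 was higher, in vutiglabridin than in semaglutide livers. Over all genes tested 24.4% differed between the drugs, 11.9% were higher and 12.6% lower with vutiglabridin, and the median difference of the 10 genes was -0.11, against 0.01 over all genes. No gene of the 10 had libraries that did not overlap between the drugs, against 3.40% of all genes tested. Mmp14 differed by -0.34 ± 0.09 (adjusted p = 0.00549), with all 8 vutiglabridin libraries below the semaglutide mean. Mmp19 differed by 0.34 ± 0.10 (adjusted p = 0.0114), with all 8 vutiglabridin libraries above the semaglutide mean. Mmp2 differed by -0.59 ± 0.17 (adjusted p = 0.0152), also with all 8 vutiglabridin libraries below the semaglutide mean.

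Timp2 differed by -0.38 ± 0.13 between the drugs (adjusted p = 0.0315), a call that rested on single libraries. Its adjusted p was 0.0678, 0.0743 and 0.0592 without vutiglabridin replicates 1, 2 and 7, and 0.0697, 0.0645 and 0.0661 without semaglutide replicates 2, 6 and 8. It was 0.0619 when the fit held only these 2 groups and 0.148 by an exact Wilcoxon test. For Timp1 the mean was 2.17 FPKM in vutiglabridin livers and 2.11 in semaglutide livers while the log2 difference was -0.12 (95% interval -0.63 to 0.38, adjusted p = 0.752), and without vutiglabridin replicate 7 it was 0.09. The differences of Mmp12 (0.30, 95% interval -0.14 to 0.73), Mmp13 (0.06, 95% interval -0.25 to 0.37) and Timp3 (-0.09, 95% interval -0.40 to 0.22) between the drugs did not pass the threshold. Those of Adamts2 (-0.25, adjusted p = 0.0697) and Adamts1 (0.24, adjusted p = 0.0924) did not pass it either, and their 95% intervals were -0.45 to -0.04 for Adamts2 and 0.03 to 0.45 for Adamts1.

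Over the 24 libraries, with group means taken off, Mmp2 varied together with Timp1, Timp2, Timp3 and Adamts2. Mmp19 varied against Timp1, Timp2, Timp3 and Mmp2. Not every one of these pairs was close in each group. The log2(FPKM + 1) values less each group's mean were correlated over the 24 libraries for all 45 pairs, with permutation within groups, and 13 pairs passed an adjusted p of 0.05, of which 9 were positive and 4 negative. The median r over the 45 pairs was 0.09. The closest positive pair was Timp2 and Timp3 (Pearson's r = 0.75, permutation p = 0.00017, adjusted p = 0.00225; Spearman's rho = 0.73, permutation p = 0.00037, adjusted p = 0.0054), and r was 0.71 without the 2 libraries farthest from the median of Timp2. Mmp2 correlated with Timp3 at 0.71, with Timp1 at 0.67, with Timp2 at 0.67 and with Adamts2 at 0.67. Timp1 did not pass with Timp2 (r = 0.44, adjusted permutation p = 0.197) or with Timp3 (r = 0.48, adjusted permutation p = 0.165). All 4 negative pairs held Mmp19, whose r was -0.76 with Timp1, -0.75 with Timp3, -0.72 with Mmp2 and -0.64 with Timp2, while its r of -0.47 with Adamts2 did not pass (adjusted permutation p = 0.0930). For Mmp19 and Timp1, Spearman's rho was -0.73 (adjusted permutation p = 0.0054), and r was -0.74 without the 2 farthest libraries. Within the groups that r was -0.80 in vutiglabridin livers, -0.52 in semaglutide livers and -0.86 in vehicle livers. Other pairs were weak in 1 group. For Mmp2 and Timp2, r was 0.81 in vutiglabridin livers, 0.89 in semaglutide livers and -0.04 in vehicle livers. In the same order it was 0.94, 0.22 and 0.62 for Mmp2 and Timp1, and 0.89, 0.79 and 0.28 for Timp2 and Timp3. For Mmp19 it was -0.91, -0.22 and -0.52 with Timp2, and -0.92, -0.21 and -0.83 with Timp3.

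Mmp12 and Mmp13 formed a pair of their own, with r = 0.58 (adjusted permutation p = 0.0248), and no other pair that held either of them passed. Their Spearman's rho was 0.51 (adjusted permutation p = 0.0635), their r without the 2 farthest libraries was 0.48, and within groups r was -0.10 in vutiglabridin livers, 0.87 in semaglutide livers and 0.75 in vehicle livers. Semaglutide replicate 7 stood apart as the highest of its group for both genes, at 3.95 FPKM for Mmp12 and 1.48 FPKM for Mmp13. Timp3 and Adamts2 passed by Pearson's r of 0.55 and not by Spearman's rho of 0.47 (adjusted permutation p = 0.0940). The values in 1 library share its depth and its scaling, and FPKM of abundant liver genes bears on every other value, so the r values describe these libraries.

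**Figure D3:**
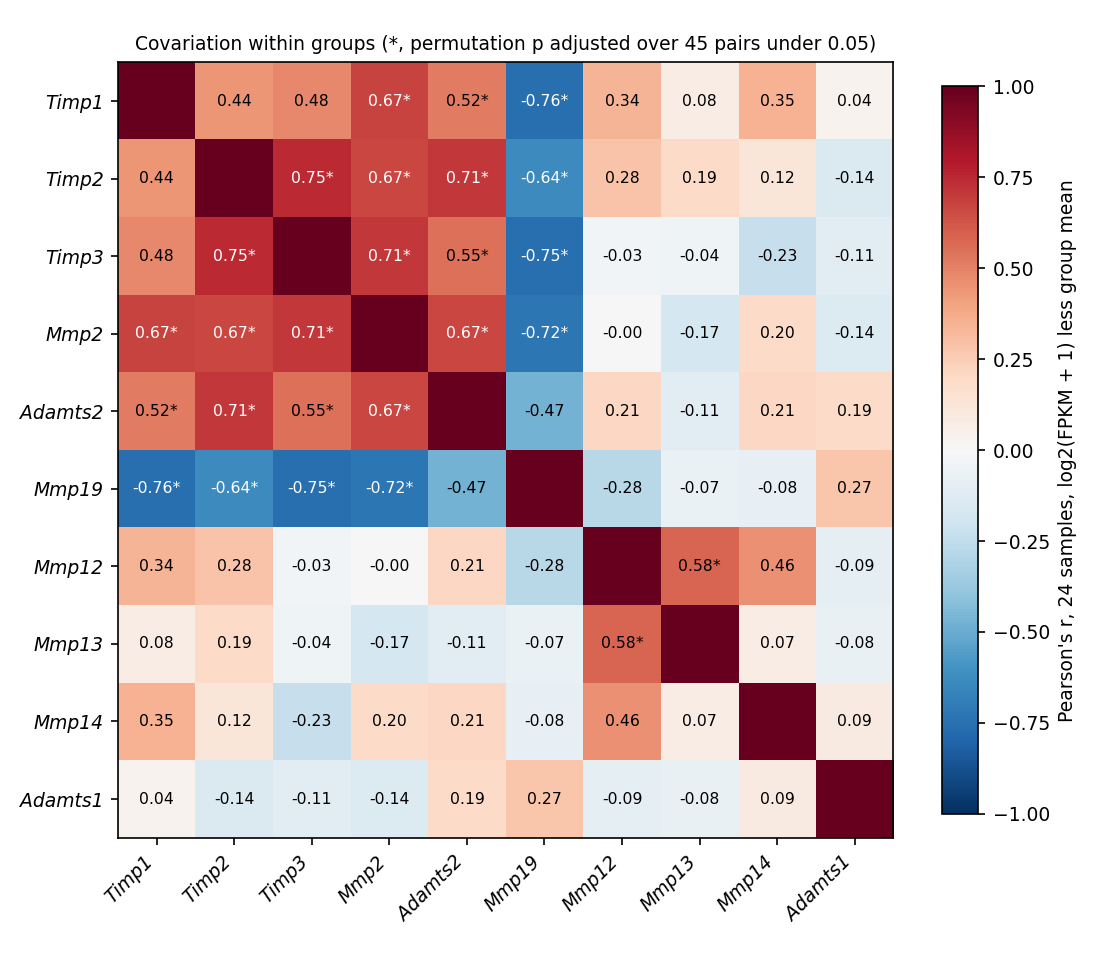
Pearson's r between the 10 genes over 24 libraries, on log2(FPKM + 1) less the group mean; rows and columns are genes, colour and number give r, and an asterisk marks an adjusted permutation p under 0.05. The values among Timp1, Timp2, Timp3, Mmp2 and Adamts2 are all positive, with Timp1 unmarked against Timp2 and Timp3; Mmp19 is negative with these 5 and unmarked against Adamts2, and Mmp12 with Mmp13 reaches 0.58.

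Among all genes tested, those most like each of the 10 within groups were read off by Pearson's r over the same 24 libraries, as a description. For Timp1 they were the chemokine gene Ccl2 (r = 0.85), Enc1 (0.85) and Prmt2 (0.82). For Timp2 they were Ptgfrn (0.88), Clstn1 (0.87) and Dpt (0.85), for Timp3 Sparcl1 (0.88), the proteoglycan gene Lum (0.85) and Emp1 (0.85), and for Mmp2 the chemokine gene Cx3cl1 (0.88), Emp1 (0.87) and Olfml3 (0.86). For Adamts2 they were the basement membrane collagen gene Col4a2 (0.83), the microfibrillar collagen gene Col6a3 (0.81) and Sparc (0.80). Mmp12 was closest to Cyth4 (0.86), to Spi1, which encodes a transcription factor of myeloid cells (0.86), and to Slc11a1, which encodes a metal transporter of macrophages (0.85). Mmp13 was closest to the haemoglobin gene Hba-a2 (0.73), Cytip (0.70) and Cd300lb (0.70). Mmp19 was closest to Tmem19 (0.84), to the apolipoprotein gene Apof (0.82) and to Arg1, which encodes the arginase of the urea cycle (0.80). Mmp14 was closest to Aen (0.82), Nectin1 (0.79) and Lrp5 (0.78), and Adamts1 to Tnfaip1 (0.74), Zcchc17 (0.70) and Morf4l2 (0.68).

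The genes of the matrix on which these proteases act were lower in vutiglabridin livers for 16 of 19 tested, and none were higher; 15 of the 16 calls held in every fit that left out 1 library or changed a setting, and that of Lamb1 did not. Their median log2 difference was -0.59, and 8.78% of all genes tested were lower. The fibrillar collagen genes Col1a1 (-1.63 ± 0.22, adjusted p = 4.13e-05), Col3a1 (-1.59 ± 0.20, adjusted p = 2.65e-05) and Col1a2 (-1.31 ± 0.17, adjusted p = 2.42e-05) fell, as did the elastin gene Eln (-0.85 ± 0.14, adjusted p = 0.000199). Col1a1 averaged 6.31 ± 3.39 FPKM in vutiglabridin livers, 11.02 ± 3.25 in semaglutide livers and 20.1 ± 5.06 in vehicle livers. In semaglutide livers 13 of the 19 were lower and 2 were higher than in vehicle livers, against 12.7% and 14.3% of all genes tested, with a median of -0.38. Of these calls, 9 of the 13 lower and 1 of the 2 higher held in every such fit, and those of Col6a1, Bgn, Col4a2, Col6a3 and Lama4 were lost in 11, 9, 7, 7 and 8 of the 16 fits that left out 1 library. There Col3a1 differed by -1.07 ± 0.20 (adjusted p = 0.000386), and the fibronectin gene Fn1 was higher by 0.46 ± 0.10 (adjusted p = 0.00163). Between the drugs 3 of the 19 were lower with vutiglabridin, Fbn1 (adjusted p = 0.0491, lost in 11 of 16 fits that left out 1 library), Col1a1 (-0.81 ± 0.22, adjusted p = 0.00910, and 0.0677 by an exact Wilcoxon test) and the laminin gene Lama4 (-0.41 ± 0.08, adjusted p = 0.000304). Over all genes tested 12.6% were lower in that comparison, a share near that of the 3 of 19.

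Few of the other proteases of the family could be tested, and their calls stand against 15.3% of all genes with vutiglabridin and 27.0% with semaglutide. Of 18 other matrix metalloproteinases, 12 were in the table and 5 were tested; Mmp23 was lower with vutiglabridin, and Mmp23 and Mmp27 were lower with semaglutide, where Mmp27 differed by -0.48 ± 0.15 (adjusted p = 0.0153). Of 8 other ADAMTS genes tested, Adamts7 and Adamts5 were lower with vutiglabridin. With semaglutide Adamts10 was lower (-0.32 ± 0.07, adjusted p = 0.00214) and Adamts6 was higher (0.26 ± 0.06, adjusted p = 0.00169, and 0.0855 after correction for GC content and length). Adamts6 averaged 0.59 FPKM in semaglutide livers, 0.325 in vehicle livers and 0.333 in vutiglabridin livers. It may thus have met the filter of 0.5 FPKM in 8 samples through the semaglutide libraries, where it was higher. Adamts7, a protease of the matrix protein COMP, was lower with vutiglabridin than with semaglutide by -0.63 ± 0.11 (adjusted p = 0.000148). Of 8 ADAM proteases tested, Adam19 and Adam15 were lower with vutiglabridin, while with semaglutide Adam8, a protease of activated leukocytes, was lower (-0.67 ± 0.13, adjusted p = 0.000625) and Adam10 was higher. The sheddase Adam10 was lower with vutiglabridin than with semaglutide by -0.35 ± 0.08 (adjusted p = 0.00204). Between the drugs, 2 of the 8 other ADAMTS genes and 1 of the 8 ADAM genes were lower with vutiglabridin. None of them were higher, and 12.6% of all genes tested were lower in that comparison. Several of these calls rested on single libraries. Of the 16 fits that each left out 1 library of the groups compared, the call was lost in 7 for Mmp23, 11 for Adamts5 and 8 for Adam15 with vutiglabridin, and in 5 for Mmp23 and 6 for Adam10 with semaglutide. That of Adamts7 with vutiglabridin was lost without vehicle replicate 7 (adjusted p = 0.0510), and that of Adam19 after quantile normalization (adjusted p = 0.0845).

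Activators of metalloproteinases split by the gene. Of 11 tested, 3 were higher and 2 lower in vutiglabridin livers, and 4 were higher and 3 lower in semaglutide livers, again against 15.3% and 27.0% of all genes called. After quantile normalization none of the 3 higher calls with vutiglabridin passed. The plasminogen activators Plau (-0.70 ± 0.13, adjusted p = 0.000635) and Plat (-0.55 ± 0.11, adjusted p = 0.00122) were lower with vutiglabridin, while Plg, the hepatocyte gene of plasminogen itself, was higher (0.44 ± 0.08, adjusted p = 0.00106, and 0.0523 after quantile normalization). The other 2 higher ones were F2, the prothrombin gene (adjusted p = 0.638 after quantile normalization and 0.124 with libraries rescaled to equal totals), and Furin, a proprotein convertase (0.163 after quantile normalization and 0.495 with rescaling). With semaglutide Plau differed by -0.45 ± 0.13 (adjusted p = 0.0107), Plat by -0.46 ± 0.11 (adjusted p = 0.00261) and Plg by 0.30 ± 0.08 (adjusted p = 0.00928), and the calls of F2, Furin and Bsg there did not hold in every fit. Of 7 other inhibitors tested, 2 were higher and 1 lower with vutiglabridin, and 2 were higher and 3 lower with semaglutide, beside the same shares of all genes. The higher call of Pzp with vutiglabridin was lost in 4 of 16 fits that left out 1 library, with rescaling (adjusted p = 0.261), after quantile normalization (0.890, with the sign reversed) and by an exact Wilcoxon test (0.0577), and with semaglutide not every call of this list held in every fit. Serpinf2, the plasmin inhibitor, was higher with vutiglabridin by 0.46 ± 0.10 (adjusted p = 0.00170) and with semaglutide by 0.41 ± 0.10 (adjusted p = 0.00239). The lower one with vutiglabridin was Serpinh1 (-0.85 ± 0.15, adjusted p = 0.000575), which belongs to the serpin family by sequence and is a chaperone of collagen. Of 10 cathepsins and collagen receptors, which take up and digest cut collagen, 4 were lower and 1 higher with vutiglabridin, and 3 were lower and 2 higher with semaglutide, against 15.3% and 27.0% of all genes called. The calls of Ctsl with vutiglabridin and of Ctsb, Ctsd and Mrc1 with semaglutide did not hold in every fit. Among them Ctss, a cathepsin of antigen-presenting cells, was lower with vutiglabridin (-0.78 ± 0.13, adjusted p = 0.000325) and with semaglutide (-0.55 ± 0.13, adjusted p = 0.00272), and the collagen receptor Mrc2 was lower with vutiglabridin (-0.59 ± 0.12, adjusted p = 0.00228).

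**Figure D4:**
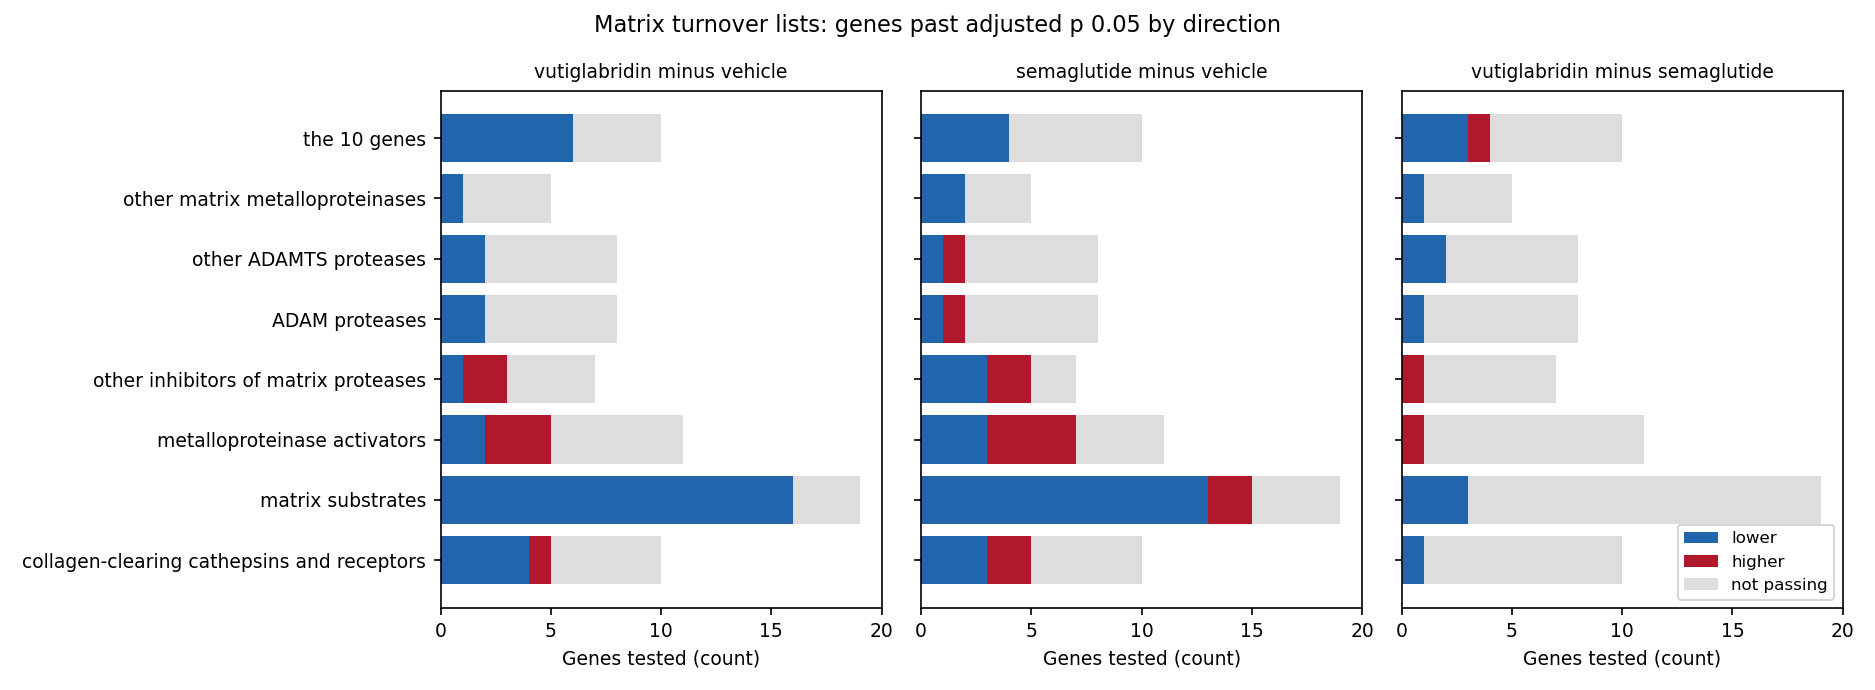
Number of genes tested in each list (horizontal axis) that were lower, higher or not past an adjusted p of 0.05, for the first-named group against the second in each panel. The matrix substrates hold 16 lower genes of 19 with vutiglabridin and 13 with semaglutide, and the 10 genes described here hold 6 and 4.

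Several of the genes share ground with others on the annotation. In GENCODE M21 on GRCm38, Timp1 (chromosome X, 20870166 to 20874735) lies within Syn1 on the opposite strand and Timp3 (chromosome 10, 86300372 to 86349506) within Syn3 on the opposite strand. Syn1 was at most 0.66 FPKM and Syn3 at most 0.12 FPKM in any library. Mmp12 (chromosome 9, 7344381 to 7369499) overlaps Mmp1b, Mmp19 (chromosome 10, 128790910 to 128800824) overlaps Tmem198b, which measured 1.58 to 2.86 FPKM, and Timp2 (chromosome 11, 118301069 to 118355740) overlaps Cep295nl on its own strand. Adamts2 (chromosome 11, 50602084 to 50807573) overlaps non-coding transcripts on the opposite strand, and Mmp13 (chromosome 9, 7272514 to 7283331), Mmp2 (chromosome 8, 92827291 to 92853420), Mmp14 (chromosome 14, 54431612 to 54445364) and Adamts1 (chromosome 16, 85793827 to 85803113) overlap no annotated gene. The library kit marks strand, but whether counting used it is not given in the sources used here, so reads in the shared stretches are uncertain.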

How the data were processed

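RNA of the 24 mouse liver samples was isolated with a column kit, and stranded mRNA libraries were sequenced as paired ends, per the labels' protocols. The submitters' processing notes list HISAT2, StringTie and DESeq2, without versions or roles. The deposited table holds FPKM made by the authors, and its genome build is not given in the sources used here; all 14293 identifiers matched GENCODE M21 (GRCm38).

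Values were tested as log2(FPKM + 1), with a pseudocount of 1, in genes of at least 0.5 FPKM in at least 8 samples (11562). One limma model (limma 3.58.1, R 4.3.3; moderated, 2-sided, mean trend) held all 24 samples in 3 groups of 8, with no other term, and p was adjusted by Benjamini-Hochberg over all genes within each comparison, with 0.05 as the threshold. Correlations used 100000 permutations within groups (numpy 2.4.6, Python 3.11.15). The scripts were tested on simulated data. The members and lists were chosen with earlier results of these data known. Named were the 10 genes, up to 6 genes per other list by lowest adjusted p, and the 3 genes most like each of the 10. Alternatives changed the pseudocount, filter, scaling, spread estimate, covariates, test and samples. Depth was implied by the steps of low FPKM values, all of which lay within 0.2 of whole fragments in every library; this covers counting error only.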

Additional observations from a re-analysis of the deposited data

Results flagged for a closer look

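In 4 of the 30 groups of 8 libraries examined for the 10 genes, 1 library stood apart from the rest by a gap test (Dixon's critical value 0.526), where chance gives about 1 in 20. Semaglutide replicate 7 was the highest of its group for Timp1, at 3.52 FPKM, for Mmp12, at 3.95 FPKM, and for Mmp13, at 1.48 FPKM. Without it the semaglutide differences from vehicle were -1.35 for Timp1, -1.10 for Mmp12 and -0.84 for Mmp13 on the log2(FPKM + 1) scale, with adjusted p of 0.000309, 0.000269 and 6.82e-05 by limma. Vehicle replicate 3 was the highest of its group for Mmp13, at 3.09 FPKM. Without it the Mmp13 differences were -0.57 with vutiglabridin (adjusted p = 0.00702) and -0.63 with semaglutide (adjusted p = 0.00168).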

How the results depend on the processing

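Of the single-gene differences of the 10 genes, 347 were on the same side of the threshold with the same sign under the settings that kept all samples, 3 lost a call, 6 gained one and 1 turned sign. Leaving out single libraries, 460 were the same, 11 lost a call, 7 gained one and 2 turned sign. The Adamts1 difference between vutiglabridin and vehicle was -0.01 (-0.0126) under TPM scaling, and the Pzp difference was -0.0223 under quantile normalization. Leaving out single libraries, the difference between vutiglabridin and semaglutide ranged over -0.0063 to 0.16 for Mmp13, turning sign without vutiglabridin replicate 5, and over -0.25 to 0.0887 for Timp1. The differences of Adamts1, Mmp13 and Timp1 named here were not past the threshold as reported. Gained calls beside those of Mmp14 and Mmp19 against vehicle given above were Adamts1 (0.24, adjusted p = 0.0401 with the replicate block, 0.0458 without semaglutide replicate 4) and Adamts2 (-0.40, adjusted p = 0.0316 under TPM scaling, and 0.0441, 0.0479 and 0.0350 without vutiglabridin replicates 3 and 4 and semaglutide replicate 1), all for vutiglabridin against semaglutide.

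With TPM scaling the median of all genes moved to -0.13 for vutiglabridin against vehicle, where 2964 genes were called (233 higher, 2731 lower), against 755 higher and 1015 lower as reported. The split was 1202 higher and 2116 lower for semaglutide against vehicle, against 1650 and 1474 as reported, and 596 and 2264 for vutiglabridin against semaglutide, against 1372 and 1454. The Timp1, Timp2, Mmp2, Mmp12, Mmp13 and Adamts2 differences with vutiglabridin were then -1.89, -0.71, -0.997, -0.95, -1.13 and -0.91, all below that median.

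Leaving out single libraries gave 5 to 7, 4 to 5 and 3 to 5 of the 10 genes for vutiglabridin against vehicle, semaglutide against vehicle and vutiglabridin against semaglutide, and 1286 to 2025, 2694 to 3279 and 2418 to 3154 of all genes. With a mean of at least 1 FPKM required, Mmp13 was not tested. Replicate numbers recur across groups, but nothing says that they pair samples, and same-numbered deviations correlated at -0.25 to 0.29, so no pairing was assumed. With the replicate block, 1723, 3073 and 2748 genes and 6, 4 and 5 of the 10 were called in the same order. Of the 45 correlations, 12 passed with a pseudocount of 0.1 and 12 with TPM, against 13. The fewest fragments limit Timp1 and Mmp13.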
